A study of Mus musculus with 2 samples.

Results

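Genes that copy DNA and genes that carry cells through mitosis were compared between sorted fractions of mouse embryo cells. The set holds 55 named genes, 31 of replication (S phase) and 24 of mitosis (G2 and M phase), out of 18193 genes that the array measures by probe sets of 1 symbol. Members were the probe sets annotated with exactly 1 symbol, that symbol being on the list. Of the 55 genes, 53 had such a probe set, with 116 probe sets in all. Chaf1a, a subunit of the chromatin assembly factor, and Ccnb1, cyclin B1, were not analysed here.

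The embryos were of Col2a1-Venus-Tg mice on a C57Bl/6 background, and both fractions carried the transgene. Venus is a modified green fluorescent protein that, per the series description, labels chondrocytes, the cells that make cartilage. Cells were sorted by fluorescence into Venus-positive cells and Venus-negative cells, and total RNA of each fraction was measured on 1 Affymetrix Mouse Genome 430 2.0 array. The labels used here do not state the age or number of the embryos, whether animals were pooled, or how gates were set. With 1 array per fraction there is no replicate error and no test between the fractions, so every value describes these 2 arrays, whose number limits the precision. In such bulk RNA, fewer cells in the cycle and less of a transcript per cycling cell cannot be told apart.

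The members follow the cell cycle. Before S phase, the origin recognition complex, Cdc6 and Cdt1 load the Mcm helicase onto origins, which cyclin E with its kinase and the helicase partners Cdc45 and GINS then help to activate, and polymerases with the Pcna clamp copy the strands. Later, cyclins A and B with Cdk1 drive mitosis, the spindle checkpoint waits for chromosomes to attach, and Cdc20 and Ube2c mark cyclins for destruction. In growth cartilage, chondrocytes multiply in columns before they leave the cycle and enlarge, so transcripts of these genes mark the dividing part of the tissue.

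Textbook models give the groups different promoter elements. E2F factors bind sites in many S-phase genes, whereas many G2 and M genes carry a cell cycle homology region (CHR), read by the DREAM and MuvB complexes, with CCAAT boxes bound by NF-Y. Promoters from RefSeq (build GRCm38.p6), running from 250 bases before to 50 bases after a gene's start, were matched by symbol for 43 of the 53 members, and the first listed window was taken for the 4 with several. They were searched on both strands for E2F-type letters (TTCCCGC with the variants TTGGCGC and also TTCGCGC), for CHR letters (TTTGAA with the variant TTCGAA, a palindrome) and for CCAAT. E2F-type letters stood in 15 of 25 replication promoters (60.0%), in 2 of 18 mitosis promoters (11.1%) and in 2218 of the 27025 genes with a window (8.21%). CHR letters stood in 5 of 25 replication (20%), 14 of 18 mitosis (77.8%) and 19.4% of all promoters. CCAAT stood in 16 replication (64.0%), 15 mitosis (83.3%) and 37.9% of all promoters. Each group's own element was thus more frequent than in the other group and in promoters at large. The letters did not divide the groups fully, since 11 of the 43 members had neither E2F-type nor CHR letters and 4 had both. The replication genes Mcm2, Cdc45 and Fen1 had CHR but no E2F-type letters. A match is a description of the letters and not a shown binding site.

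**Figure D1:**
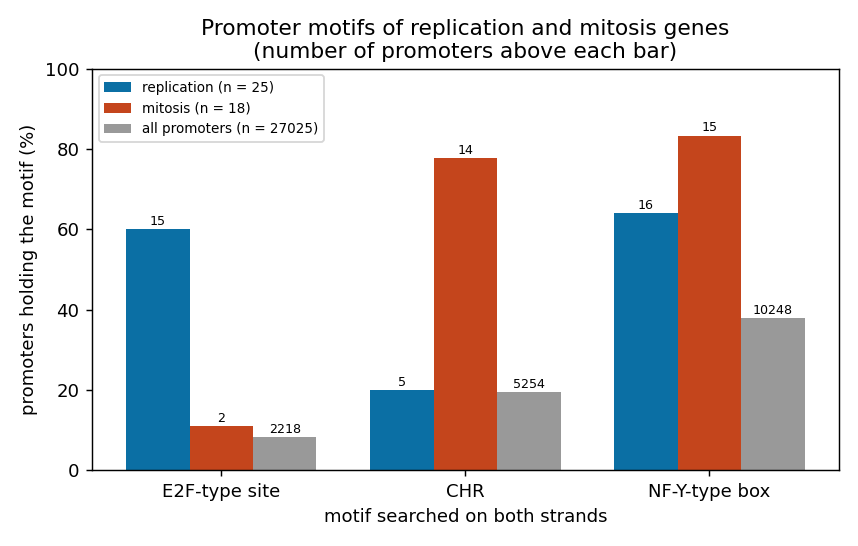
Share of promoters (vertical axis, percent, from 0) that hold each motif, for the 25 replication genes, the 18 mitosis genes and all 27025 genes with a window; numbers above the bars are counts of promoters, and the NF-Y-type box is CCAAT. E2F-type letters stand in 60.0% of the replication promoters and CHR letters in 77.8% of the mitosis promoters.

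The promoters shown next belong to the 3 members of each group that had the lowest Venus-positive over Venus-negative ratio among those with the element of their group. For replication, capitals mark the E2F-type letters on either strand. Pola1, the catalytic subunit of DNA polymerase alpha, lies on the minus strand (chrX:93632106-93632405), Uhrf1, which helps to copy DNA methylation, on the plus strand (chr17:56303087-56303386), and Rfc4, a clamp loader subunit, on the minus strand (chr16:23127681-23127980).
Pola1: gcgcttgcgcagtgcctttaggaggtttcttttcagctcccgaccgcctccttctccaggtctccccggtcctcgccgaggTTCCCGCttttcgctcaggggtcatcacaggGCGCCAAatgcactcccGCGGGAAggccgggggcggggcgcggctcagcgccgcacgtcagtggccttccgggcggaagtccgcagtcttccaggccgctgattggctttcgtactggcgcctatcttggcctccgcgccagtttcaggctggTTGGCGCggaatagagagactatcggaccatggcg
Uhrf1: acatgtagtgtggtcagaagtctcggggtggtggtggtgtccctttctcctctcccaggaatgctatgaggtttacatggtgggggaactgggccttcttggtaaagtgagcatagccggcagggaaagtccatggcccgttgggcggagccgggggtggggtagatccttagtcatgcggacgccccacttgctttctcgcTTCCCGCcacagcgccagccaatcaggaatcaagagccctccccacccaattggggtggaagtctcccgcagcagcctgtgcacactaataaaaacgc
Rfc4: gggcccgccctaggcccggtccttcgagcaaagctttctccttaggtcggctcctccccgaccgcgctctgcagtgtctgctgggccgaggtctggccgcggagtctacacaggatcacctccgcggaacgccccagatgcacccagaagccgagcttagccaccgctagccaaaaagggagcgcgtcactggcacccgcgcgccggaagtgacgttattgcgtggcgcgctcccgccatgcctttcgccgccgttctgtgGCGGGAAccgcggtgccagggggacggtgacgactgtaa
Counting the first transcribed base as 1, with no position 0, the 4 matches of Pola1 began at -169, -138, -121 and 16, that of Uhrf1 at -48 and that of Rfc4 at 12.

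For mitosis, capitals mark the CHR letters. Bub1, a kinase of the spindle checkpoint, lies on the minus strand (chr2:127831810-127832109), Ccnb2, cyclin B2, on the minus strand (chr9:70421505-70421804), and Cenpa, the histone H3 variant of the centromere, on the plus strand (chr5:30666636-30666935).
Bub1: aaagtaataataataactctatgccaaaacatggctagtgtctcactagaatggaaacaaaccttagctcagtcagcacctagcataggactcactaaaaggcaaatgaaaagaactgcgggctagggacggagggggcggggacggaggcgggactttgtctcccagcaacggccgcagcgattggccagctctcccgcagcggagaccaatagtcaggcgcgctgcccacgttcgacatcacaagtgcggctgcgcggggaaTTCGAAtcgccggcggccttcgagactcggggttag
Ccnb2: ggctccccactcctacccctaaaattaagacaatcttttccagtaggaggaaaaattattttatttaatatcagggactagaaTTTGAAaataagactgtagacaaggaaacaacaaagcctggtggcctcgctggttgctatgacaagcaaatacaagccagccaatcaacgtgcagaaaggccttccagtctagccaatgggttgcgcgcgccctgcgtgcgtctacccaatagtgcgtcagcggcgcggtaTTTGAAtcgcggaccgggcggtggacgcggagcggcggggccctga
Cenpa: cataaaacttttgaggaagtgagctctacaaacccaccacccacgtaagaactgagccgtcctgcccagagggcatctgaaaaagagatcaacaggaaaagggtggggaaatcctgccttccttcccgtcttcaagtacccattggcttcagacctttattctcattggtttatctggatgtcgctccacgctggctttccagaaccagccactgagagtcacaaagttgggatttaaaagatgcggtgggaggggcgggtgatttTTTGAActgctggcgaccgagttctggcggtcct
In each of the 3 promoters a CHR match lay just after the start, at 15 in Bub1, at 5 in Ccnb2 and at 17 in Cenpa. Ccnb2 had a further match at -167. CCAAT on either strand preceded the start in each, at -68 and -42 in Bub1, at -87, -54 and -21 in Ccnb2 and at -109 and -86 in Cenpa.

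The values are MAS5 signals, linear brightness values per probe set that the authors deposited. Signals under a floor of 22.5, the median of all non-control signals, were raised to it, and the brightest measured probe set stood for a gene. Log2 ratios set Venus-positive cells over Venus-negative cells. Signals were dimmer on the Venus-positive array, with a trimmed mean of 109 against 133. The median log2 ratio of the 11789 measured genes was -0.33, and all 18 hybridisation controls were lower on it, by a mean log2 ratio of -0.29. The 24 poly-A controls were lower as well, by a mean of -0.53, and scaling to them, an alternative chosen after seeing the data, put the median gene at 0.18 and the group medians at 0.27 and 0.25. Ratios called relative have the median of all measured genes subtracted. Markers of the sorted cells followed the labels. All 9 chondrocyte markers were at least 2-fold higher in Venus-positive cells, among them Col2a1, which named the reporter and is no independent check. All 7 leukocyte, 6 endothelial and 5 epithelial markers and 6 of 7 muscle and 6 of 7 erythroid markers were at least 2-fold lower. Since the marker lists were chosen with earlier results of these data known, the other markers are no independent check either.

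All 53 genes were at or above the floor in at least 1 fraction and 52 in both, the exception being Tyms. Neither group stood apart from the typical gene. The 30 replication genes had a median log2 ratio of -0.25 and the 23 mitosis genes -0.28, beside -0.33 over all measured genes. Relative to that median gene the group medians were 0.077 and 0.056. No member of either group was 2-fold higher or 2-fold lower on either scale, where 2.79% of all measured genes were 2-fold higher and 11.6% 2-fold lower on the deposited scale, and 5.06% and 6.45% on the relative scale. At 1.5-fold, 3 replication and 3 mitosis genes were lower and none higher on the deposited scale, against 28.8% of all measured genes lower and 6.05% higher. On the relative scale 1 member, Cdc45, was at least 1.5-fold higher and none was lower, against 12.1% and 13.6% of all measured genes. The median of replication genes exceeded that of mitosis genes by 0.021 on the log2 scale, a difference that has no error of its own. Measured probe sets of the same member had a median standard deviation of 0.15 (32 members with several), which shows how far probes disagree within these 2 arrays and is no error between samples.

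The members lay close together. The middle 50% of their log2 ratios spanned 0.35, from -0.46 to -0.11, while that of all measured genes spanned 0.61. Among genes with a mean signal of at least 100 the span was 0.34 for the 48 members and 0.54 for all 7139 genes. Relative to the median gene, 50 of 53 members lay within 0.5 on the log2 scale, as did 68.8% of all measured genes. Of the members, 30 lay above the median gene and 23 below.

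**Figure D2:**
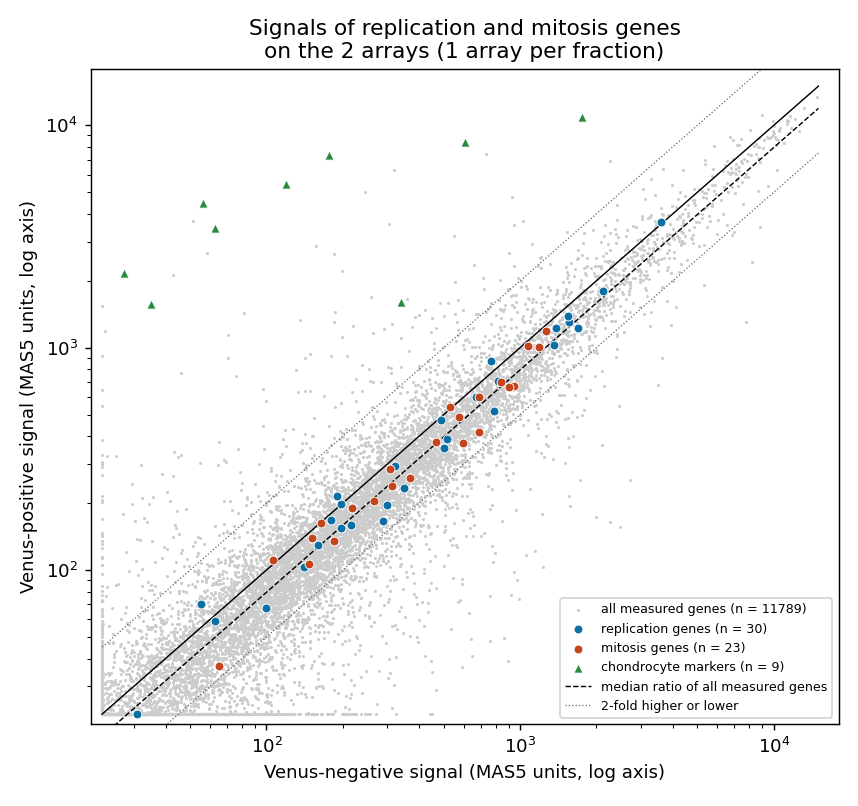
Signal on the Venus-positive array (vertical) against the Venus-negative array (horizontal), both in MAS5 units on log axes with values under 22.5 drawn at that floor. Each point is a gene; the solid line marks equal signal, the dashed line the median ratio of all 11789 measured genes and the dotted lines 2-fold. All replication (30) and mitosis (23) genes lie between the dotted lines, while the 9 chondrocyte markers lie above them.

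The helicase that opens DNA at the fork was nearly level. Its ring is made of Mcm2 to Mcm7, and by the brightest probe set all 6 subunits lay above the median gene. Their median log2 ratio was -0.16 as deposited and 0.17 relative to that gene. With quantile normalization or intensity-dependent centring Mcm4 (-0.067 and -0.028) and Mcm7 (-0.024 and -0.017) lay slightly below 0. With the mean over probe sets, Mcm4 at -0.48 and Mcm7 at -0.36 lay under the median gene, which was then at -0.32. Mcm7 read 1797 in Venus-positive against 2126 in Venus-negative cells. Mcm6 was at 1394 against 1540, Mcm5 at 1222 against 1385 and Mcm4 at 1301 against 1565. Mcm2 was at 472 against 487. Mcm3 was the ring subunit with the higher signal in Venus-positive cells, at 869 against 766, a log2 ratio of 0.18. Its 5 probe sets gave log2 ratios from -0.00 to 0.32. The other 3 probe sets of Mcm7 (-0.35, -0.39 and -0.44) and a second one of Mcm6 (-0.42) lay below the median gene. The 2 probe sets of Mcm4 were about equally bright but differed more. The second read 1111 against 1799, a log2 ratio of -0.70 in place of -0.27. A dim further probe set of Mcm5 (31.3 against 20.2) went the other way from the bright ones.

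The partners of the helicase were spread more widely. Gins1, a subunit of the GINS complex that holds the helicase to the polymerase, was at 166 in Venus-positive against 289 in Venus-negative cells. This was 1.74-fold lower, the lowest ratio among replication genes, and 17.6% of all measured genes had a lower ratio still. Gins2, another subunit of the complex, was 1.49-fold lower (234 against 347), with a second probe set at a log2 ratio of -0.39. Mcm10, which helps to start the fork, was at 67.2 against 99.5, 1.48-fold lower. Cdc45, the remaining helicase partner, had the highest ratio of all members, at 70.5 in Venus-positive against 55.4 in Venus-negative cells. This was 1.27-fold higher and 1.60-fold on the relative scale. Both signals are dim, and a second probe set read 17.1 against 26.4, a log2 ratio of -0.23 with the floor applied, so the direction of Cdc45 rests on its brighter probe set.

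Genes of origin licensing were closer to level. Cdt1, which brings the helicase to origins, was at 1027 in Venus-positive against 1357 in Venus-negative cells, a log2 ratio of -0.40. Its loading partner Cdc6 was at 154 against 197, a log2 ratio of -0.35 that put it at the median gene. The origin recognition subunits Orc6 (293 against 322) and Orc1 (59.2 against 62.5) had log2 ratios of -0.13 and -0.08, and a dimmer probe set of Orc1 gave 0.23. Over the 14 genes of licensing and helicase, 9 lay above the median gene and 5 below.

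Among polymerases, clamp and ligation genes, Pcna, the sliding clamp, was level on the deposited scale, at 3673 in Venus-positive against 3593 in Venus-negative cells. On the relative scale Pcna was 1.29-fold higher. The flap nuclease gene Fen1 was at 197 on both arrays, with a second probe set at 176 against 198. Pola1, whose promoter with 4 E2F-type matches is printed above, was at 196 against 298, 1.52-fold lower. The loader subunit Rfc4 was at 353 against 502, a log2 ratio of -0.51, whereas its partner Rfc3 was at 167 against 180, a log2 ratio of -0.10, with a second probe set at 0.10. Pold1, the catalytic subunit of polymerase delta, had a log2 ratio of -0.44, but its other probe set (155 against 162) gave -0.07. Pole, that of polymerase epsilon, was the median gene of these 9, at 129 against 160. The primase subunit gene Prim1 (601 against 671) and the ligase gene Lig1 (390 against 516) had log2 ratios of -0.16 and -0.40.

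Nucleotide supply genes were modestly lower on the deposited scale. Rrm1, the large subunit of ribonucleotide reductase, was at 708 against 822, a log2 ratio of -0.21. Rrm2, the small subunit made in S phase, was at 1231 against 1695, a log2 ratio of -0.46. Its other probe sets gave -0.58 (519 against 775) and 0.06 (298 against 287), so they lay on both sides of 0. Tyms, the thymidylate synthase gene, was dim by the probe sets that carry its symbol alone. Only 1 of these 4 was measured, at 30.8 in Venus-negative cells against 16.9, under the floor, in Venus-positive cells, which makes it at least 1.37-fold lower. A probe set shared with the pseudogene Tyms-ps was far brighter, at 430.3 against 471, so the level of Tyms is uncertain.

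The role listed as chromatin assembly, here Chaf1b with Uhrf1, had the lowest median log2 ratio of the replication roles, -0.52 over 2 genes. Uhrf1 was at 519 in Venus-positive against 786 in Venus-negative cells, 1.52-fold lower, and its other probe set read a log2 ratio of -0.55. Chaf1b was at 103 against 140, a log2 ratio of -0.44. That was near the median of the nucleotide supply genes (-0.45), which is itself the floored and uncertain value of Tyms. The E-type cyclins lay on opposite sides of 0. Ccne1 was at 216 against 190, with both probe sets higher in Venus-positive cells (0.19 and 0.28), and Ccne2 was at 191 against 220, a log2 ratio of -0.21. Relative to the median gene both cyclins were higher.

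**Figure D3:**
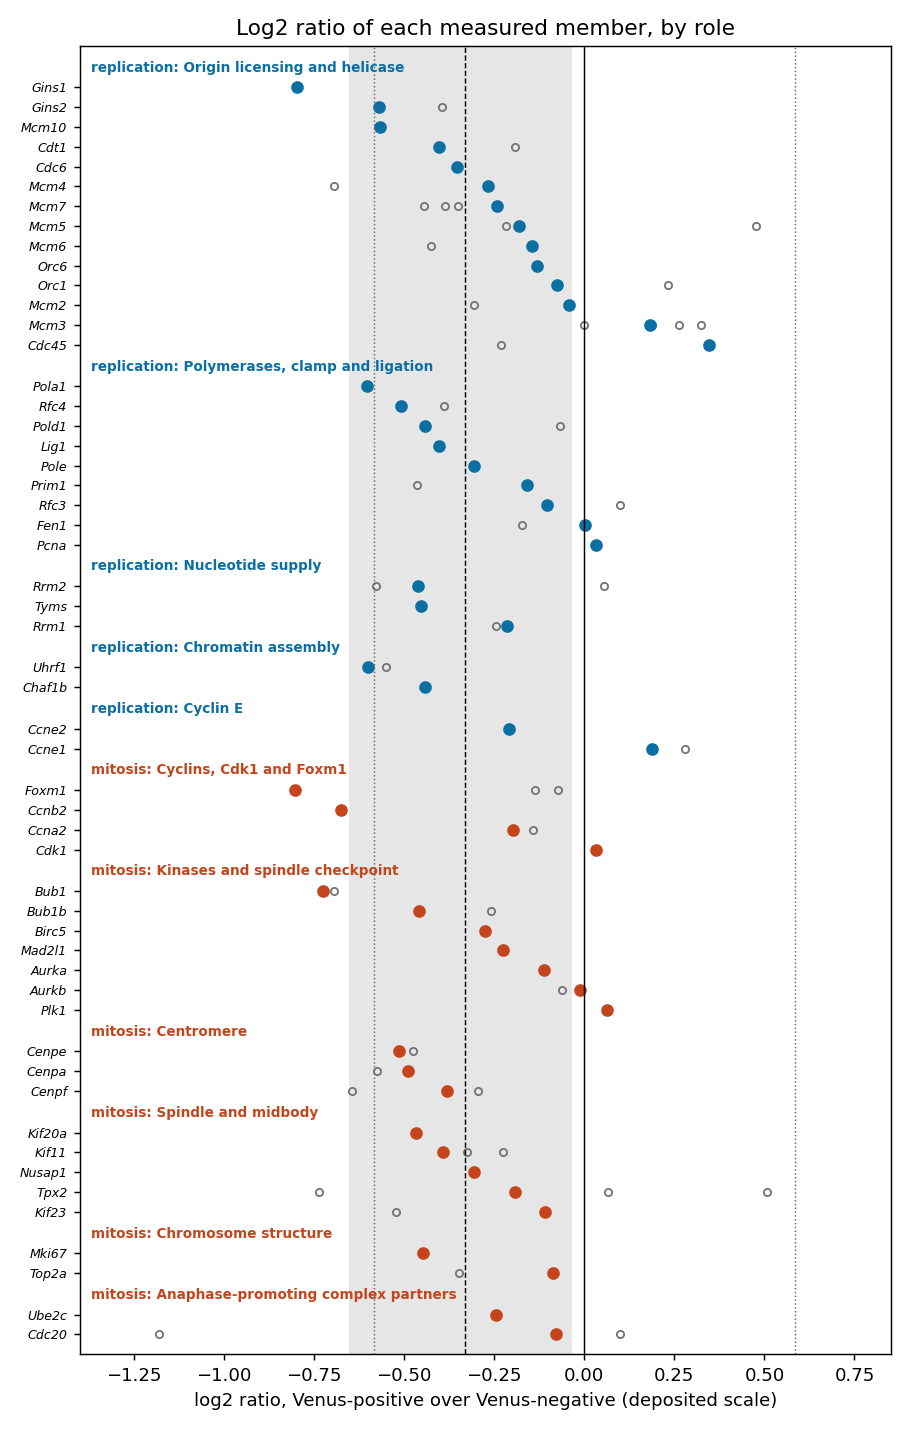
Log2 ratio, Venus-positive over Venus-negative, on the deposited scale (horizontal axis) for each of the 53 measured members, in rows by role. Filled points are the probe set that stands for the gene and open points its other measured probe sets; the solid line is 0, the dashed line the median of all measured genes (-0.33), the grey band their middle 50% and the dotted lines 1.5-fold. Members run from -0.80 (Foxm1) to 0.35 (Cdc45), and 6 lie left of the lower dotted line.

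Mitotic genes ran from -0.80 to 0.06, with the same lower end as replication genes and an upper end below Cdc45, Ccne1 and Mcm3. Cdk1, the kinase that drives entry into mitosis, was at 539 in Venus-positive against 527 in Venus-negative cells, so it was level on the deposited scale. On the relative scale Cdk1 was 1.29-fold higher. Its partner Ccna2, cyclin A2, was at 598 against 686, a log2 ratio of -0.20. Ccnb2, whose promoter holds 2 CHR matches, was at 373 against 596, 1.60-fold lower and 1.27-fold lower on the relative scale. Foxm1, a transcription factor that works with MuvB at CHR promoters, had the lowest ratio of all members, at 37.2 against 64.9, 1.75-fold lower. Foxm1 was dim, and its other measured probe sets gave log2 ratios of -0.07 (40.0 against 42.1) and -0.14, so the difference rests on 1 probe set.

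Kinases and checkpoint genes differed among themselves. Bub1 was at 416 in Venus-positive against 688 in Venus-negative cells, 1.65-fold lower, and its other probe set read a log2 ratio of -0.69 against -0.72. Among Bub1, Uhrf1 and Foxm1, the members past 1.5-fold with several measured probe sets, Bub1 had the closest agreement between them. Its relative Bub1b was at 135 against 185, a log2 ratio of -0.46, with a second probe set at -0.26. Mad2l1, which also serves the checkpoint, was at 490 against 572, a log2 ratio of -0.22. The mitotic kinases were nearly level on the deposited scale, with Plk1 at 111 against 106, Aurkb at 164 against 165 and Aurka at 140 against 151. On the relative scale Plk1 was 1.31-fold, Aurkb 1.25-fold and Aurka 1.17-fold higher. Birc5, the survivin subunit that accompanies Aurkb, was at 697 against 844 and was the median mitosis gene.

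Centromere genes lay a little below the median gene. Cenpa was at 675 in Venus-positive against 947 in Venus-negative cells, a log2 ratio of -0.49. Cenpe, a kinetochore motor, was at 259 against 369, a log2 ratio of -0.51, and the large kinetochore protein gene Cenpf was at 203 against 265, a log2 ratio of -0.38. The 7 measured probe sets of these 3 genes all lay below 0, as did 9110 of the 11789 measured genes. A dim probe set of Cenpf, at -0.29, lay above the median gene. Among spindle and midbody genes, Kif20a was at 107 against 147 and had the lowest log2 ratio, -0.47, and Kif23, a motor of the midbody, the highest, -0.11 (284 against 306), though its second measured probe set gave -0.52. The spindle motor Kif11 and the microtubule binder Nusap1 had log2 ratios of -0.39 and -0.31. Tpx2, which activates Aurka on the spindle, was at 191 against 218, and its dimmer probe sets ran from -0.74 to 0.51.

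The common markers of dividing cells gave modest and unequal ratios. Mki67, the Ki-67 antigen gene, was at 662 in Venus-positive against 904 in Venus-negative cells, 1.36-fold lower and 1.08-fold lower on the relative scale. Top2a, the topoisomerase that untangles chromosomes, was at 1188 against 1263, 1.06-fold lower and 1.18-fold higher on the relative scale. The genes that end mitosis were slightly lower on the deposited scale. Ube2c was at 1003 against 1189 and Cdc20 at 1015 against 1071, log2 ratios of -0.24 and -0.08. The 3 measured probe sets of Cdc20 ran from -1.18, where both signals were dim (21.8 against 51.0), to 0.10.

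The 43 members with a promoter window were also grouped by their letters instead of by role. The 10 without one include Foxm1 and Gins1, the lowest members of their groups. The 13 members with E2F-type but no CHR letters, all of them replication genes, had a median log2 ratio of -0.35, from -0.60 to 0.18. The 15 with CHR but no E2F-type letters, 12 of them mitosis genes, had a median of -0.11, from -0.72 (Bub1) to 0.35 (Cdc45). The 11 with neither had a median of -0.31 and the 4 with both one of -0.17, beside -0.33 for all measured genes. The ranges overlapped almost wholly, and no test was possible.

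Other genes of the same pathways were counted beside the members. Of 34 measured replication genes outside the set, 4 were at least 1.5-fold lower and none was higher on the deposited scale, with a median log2 ratio of -0.27. Of 49 measured mitosis genes, 13 were at least 1.5-fold lower and none higher, with a median of -0.35, beside the 28.8% of all measured genes that were lower. Their extremes were Orc5, an origin recognition subunit (108 against 243, 2.26-fold lower), and Asf1b, a histone chaperone (198 against 141, 1.41-fold higher), for replication. For mitosis they were the kinase gene Nek2 (49.0 against 128, 2.61-fold lower) and Dlgap5, a spindle gene (74.4 against 56.3, 1.32-fold higher). Nek2 and Dlgap5 each had a probe set of opposite sign, at log2 ratios of 0.24 and -0.19. Next to these extremes came Cdc7 (202 against 379), Rfc1 (358 against 312), Ect2 (256 against 476) and Ckap2l (123 against 113). Rfc1 and Ckap2l also had probe sets of opposite sign, at -0.33 and -0.58.

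The regulators of G1, the phase before S phase, and of E2F were spread more widely than the members. Their list also holds MuvB subunits such as Lin9. Of 32 measured, 5 exceeded 1.5-fold upwards and 11 downwards in deposited units, as did 8 and 4 after subtracting the median gene. Over all measured genes these shares were 6.05% and 28.8%, and 12.1% and 13.6%, so the downward counts were near the background. Their middle 50% spanned 0.79 on the log2 scale against 0.35 for the members, around a median of -0.25. Cdkn1a, the inhibitor p21, was at 339 in Venus-positive against 135 in Venus-negative cells, 2.51-fold higher, with a second probe set at a log2 ratio of 1.99. Myc was at 505 against 298, 1.70-fold higher. E2f2, an activating E2F factor, was at 53.8 against 199, 3.70-fold lower, and its other probe set read a log2 ratio of -1.86. Rb1, the retinoblastoma gene that restrains E2F, was at 115 against 311, 2.70-fold lower. Among D-type cyclins, Ccnd1 was at 2316 against 1517 and Ccnd2 at 3773 against 4167. That the regulators differ more than the members was not tested.

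**Figure D4:**
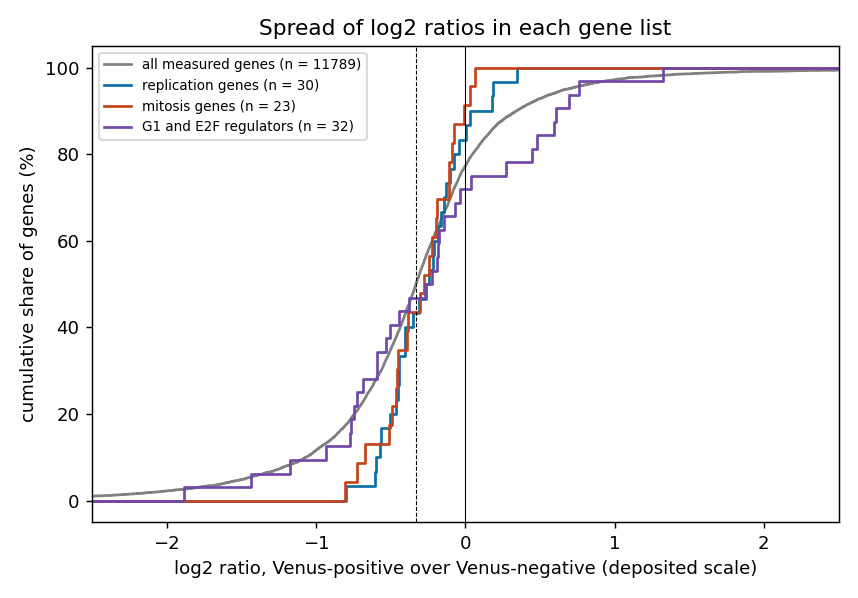
Cumulative share of genes (vertical axis, percent) at or below each log2 ratio, Venus-positive over Venus-negative on the deposited scale (horizontal axis; values beyond 2.5 are outside the frame), for 30 replication, 23 mitosis, 32 G1 and E2F regulator genes and all 11789 measured genes. The solid vertical line is 0 and the dashed line the median of all measured genes. The replication and mitosis curves rise steeply between -0.80 and 0.35, and the curve of the regulators is flatter.

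The fractions differ in which cells they hold, and some of these cell types divide in the embryo. The summed signal of the 7 measured erythroid markers was 1162 in Venus-positive against 5770 in Venus-negative cells. Slc4a1, the red cell anion exchanger, was at 49.2 against 867. Tfrc, the transferrin receptor that many dividing cells also use, was at 705 against 658 and gave most of the 1162. A second probe set of Tfrc gave a log2 ratio of -0.20, so its probe sets lay on both sides of 0. The 7 leukocyte markers summed to 149 against 1906 and the 7 muscle markers to 291 against 3936, with 5 and 4 of them below the floor in Venus-positive cells. The 5 fibroblast markers summed to 7229 against 16933, most of it from Col3a1, a fibrillar collagen (6301 against 10341), and their median was 5.62-fold lower. The 6 endothelial markers summed to 124 against 702. The 5 genes listed as markers of hypertrophic chondrocytes, cells that have left the cycle, summed to 1597 in Venus-positive cells against 173. That these genes mark only such cells was not tested. Most of the 173 came from Ibsp, at 361 in Venus-positive against 120 in Venus-negative cells. Most of the 1597 came from Panx3 (922 against 17.0), whose probe sets differed widely, with log2 ratios of 5.36 and 0.59. Col10a1 was dim, at 48.1 against 0.63. The summed signal of the 53 members was 27882 against 32862. Signals of all 11789 measured genes were lower as well, summing to 4.56e+06 against 5.31e+06. The part of any of these cell types in the members' values was not tested.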

How the data were processed

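Gene expression was measured in 1 Venus-positive and 1 Venus-negative sample. Groups came from the cell type in the labels. Per the labels' protocols, biotinylated cRNA was made from 100 ng of total RNA. The deposited linear intensity values were computed by the authors with MAS5, per the submitters' processing notes, and the scaling target is not given in the sources used here. MAS5 subtracts mismatch probes, which makes dim values unsteady, so a floor at the median of non-control signals (22.5) was applied before log2. Of 45037 non-control probe sets, 34945 had 1 symbol, 932 several and 9160 none in the platform annotation. Only the first kind was used. All 53 member identifiers matched RefSeq (GRCm38.p6).

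Genes counted as measured when any of their probe sets was at or above this floor in either fraction, and were read from the brightest such probe set by mean log2. Counts used sizes of 1.5-fold and 2-fold. Named were members past 1.5-fold on either scale, the median and extreme members of each role, members whose probe sets lay on both sides of 0, and the 2 highest and 2 lowest genes of the other pathway lists. The remaining members were also named, and Slc4a1, Tfrc, Ccnd1 and Ccnd2 were chosen after their values were seen, as were the Mcm2 to Mcm7 ring as a group and the grouping by promoter letters. The members and lists were chosen with earlier results of these data known. Calculations used Python with pandas 2.3.3 and statsmodels 0.14.6 and were tested on simulated data.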

Additional observations from a re-analysis of the deposited data

How the results depend on the processing

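With 1 array per fraction no sample could be left out. No paired analysis was possible because each fraction has only 1 sample. The sign of both group medians depended on the scaling. The replication median of -0.25 became 0.077 with median centring, 0.0030 with quantile normalization, 0.0089 with intensity-dependent centring (lowess, span 0.3) and 0.034 with scaling to the hybridisation controls. The mitosis median of -0.28 became 0.056, -0.027, -0.0048 and 0.012 under the same settings. With scaling to the poly-A controls, chosen after seeing the data, the medians were 0.27 and 0.25, 0 members of either group were at least 1.5-fold lower, and 3 replication genes (Mcm3, Cdc45, Ccne1) and 1 mitosis gene (Plk1) were at least 1.5-fold higher. Under the other 4 scalings the number of members at least 1.5-fold lower was 0 in both groups, in place of 3 and 3, and 1 replication gene (Cdc45) was at least 1.5-fold higher in place of 0, while the mitosis group had 0. With the other 7 alternatives (floors at the 25th and 75th percentiles, log2(signal + 16) without a floor, the mean over probe sets, no _x_at or _s_at probe sets, Ccna2 and Foxm1 counted as replication genes, and members under a mean signal of 100 left out) both medians stayed below 0, and 2 to 4 replication and 2 or 3 mitosis genes were at least 1.5-fold lower. The difference between the medians ran from 0.0058 to 0.031 over all 12 alternatives. With the mean over probe sets the log2 ratio of Cdc45 was 0.06. Raising the floor to that of the 75th percentile left 26 replication and 21 mitosis genes. Signals near the floor, as of Tyms, Cdc45 and Foxm1, limit what can be said of these genes.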

Other observations

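A probe set shared by Tyms and its pseudogene Tyms-ps, left out of the comparisons because it carries several symbols, was at 430.3 in Venus-positive against 471 in Venus-negative cells, a log2 ratio of -0.13. It was far brighter on both arrays than the floor of 22.5, unlike the 4 probe sets of Tyms alone. A probe set annotated to Foxm1 together with Tex52 and Pebp1 was at 106 against 141, a log2 ratio of -0.41.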
